A study of Mus musculus with 32 samples.

Results

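The neuregulins Nrg1, Nrg2, Nrg3 and Nrg4 and the ErbB receptors Egfr, Erbb2, Erbb3 and Erbb4 make up 8 of the 24940 genes measured by RNA-seq in a study of the DNA-binding protein CTCF in mouse embryonic stem (ES) cells. Nrg2 was picked because its transcript was about 10-fold higher in mutant cells and because the CTCF peak at its promoter in control cells was not in the mutant list. The other 7 members were taken by gene family. The mutant, called d8 in RNA-seq and Del8 in ChIP-seq, expressed GFP-CTCF-Del8, a fusion of green fluorescent protein with CTCF that lacked zinc finger 8, 1 of the fingers of its DNA-binding domain. The control, called GC, expressed GFP-CTCF with all its fingers. Both were ES cells of strain 129, and both carried the GFP fusion. RNA came from 3 d8 lines, with 3, 3 and 2 samples, and from 2 GC lines with 3 samples each. The sources used here do not say how each line was derived. CTCF peaks came from 1 Del8 library and 1 GC library, with the line not named.

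Neuregulins are growth factors of the epidermal growth factor (EGF) family that are made as membrane-bound precursors and released by proteases. They bind Erbb3 or Erbb4, and the bound receptor pairs with another ErbB receptor, often Erbb2, which has no known ligand of its own. Erbb3 has little kinase activity and signals through its partner, mainly to PI3-kinase, while Egfr binds EGF, transforming growth factor alpha and related ligands and feeds the RAS-ERK cascade. The pathway is best known from heart, nerve and glial development, and in mouse ES cells ERK activity favours exit from the naive state.

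Promoter sequence was looked up for the members in RefSeq windows of mouse build GRCm38.p6, each of 300 bases that end 50 bases after the start site. Nrg3, Nrg4, Egfr, Erbb2 and Erbb4 had a window, while Nrg1, Nrg2 and Erbb3 had none. No CTCF peak of either list overlapped the windows of these 5, but the window of Mien1, the gene next to Erbb2, held the whole GC peak and 236 bases of the Del8 peak that lay 26.6 kb beyond the Erbb2 start. That window is printed first, followed for comparison by those of Erbb2, Egfr and Nrg4, which held no peak. Capitals mark each match to AGNNGGC on either strand, which is the second part of the CTCF core motif. The core as a whole was searched on both strands as CCA, any 2 bases, AG, any 2 bases, then GGC.
Mien1 (chr11:98438939-98439238, minus strand): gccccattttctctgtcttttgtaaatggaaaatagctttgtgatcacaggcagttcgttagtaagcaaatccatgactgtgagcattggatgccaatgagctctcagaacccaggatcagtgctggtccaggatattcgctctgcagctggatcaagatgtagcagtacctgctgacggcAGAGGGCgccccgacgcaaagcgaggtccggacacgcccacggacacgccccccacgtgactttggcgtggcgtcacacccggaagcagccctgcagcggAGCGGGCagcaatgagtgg
Erbb2 (chr11:98412234-98412533, plus strand): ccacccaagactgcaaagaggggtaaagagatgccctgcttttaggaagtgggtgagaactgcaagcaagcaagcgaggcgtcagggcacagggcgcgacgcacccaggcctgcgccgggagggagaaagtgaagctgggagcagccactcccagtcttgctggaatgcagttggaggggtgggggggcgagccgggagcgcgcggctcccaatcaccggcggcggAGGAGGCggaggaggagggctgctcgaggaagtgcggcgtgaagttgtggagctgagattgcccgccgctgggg
Egfr (chr11:16751953-16752252, plus strand): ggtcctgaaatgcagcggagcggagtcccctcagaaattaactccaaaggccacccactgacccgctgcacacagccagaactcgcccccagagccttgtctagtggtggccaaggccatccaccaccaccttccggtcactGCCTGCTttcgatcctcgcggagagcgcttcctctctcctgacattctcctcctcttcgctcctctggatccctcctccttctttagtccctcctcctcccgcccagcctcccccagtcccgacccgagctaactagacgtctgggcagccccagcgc
Nrg4 (chr9:55283576-55283875, minus strand): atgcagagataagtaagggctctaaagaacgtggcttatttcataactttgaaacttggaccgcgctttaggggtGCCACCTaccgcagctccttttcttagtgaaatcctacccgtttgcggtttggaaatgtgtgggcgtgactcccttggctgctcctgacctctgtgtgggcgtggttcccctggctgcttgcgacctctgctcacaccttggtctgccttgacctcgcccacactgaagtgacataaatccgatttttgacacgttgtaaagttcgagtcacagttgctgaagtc
The whole core was in none of the 6 windows searched, and 2.44% of all 32544 RefSeq windows held it. AGNNGGC alone matched 2 times in the Mien1 window and once in each of the others printed, and 59.8% of all windows held at least 1 match, so it does not set these apart. These matches describe letters and are not sites of binding.

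The RNA-seq libraries held an estimated 14.3 to 16.7 M reads, of which 11.99 to 14.1 M lay in genes. Values are RPKM as deposited by the authors, which divide the reads of a gene by its exon length and by the size of the library. Genes were tested on log2(RPKM + 1) line means with limma, d8 over GC, at a Benjamini-Hochberg adjusted p of at most 0.05. Of 12468 genes tested, 376 were higher (3.02%) and 716 lower (5.74%) in d8, and the median log2 fold change was -0.02. These counts depended on single lines, with 4 higher and 23 lower without GC line 1 and 7 higher and 23 lower without d8 line 3. Chromosome 11 stood apart, with 387 of its 1067 tested genes lower (36.3%) and a median of -0.40. GC line 1 stood apart in Ctcf itself, at 5.58 to 6.23 RPKM, against 22.9 to 37.2 RPKM over the 3 d8 lines and GC line 2. This level does not check the deletion, because RPKM over the whole gene does not show zinc finger 8. The summed level over 8 ES cell markers was 1477 to 1883 RPKM in d8 and 1434 to 1890 RPKM in GC libraries, with Pou5f1 and Dppa5a as its highest genes. Of these 8, Nanog fell to 55.1 RPKM in d8, against 124 RPKM in GC lines (limma adjusted p = 0.029). Tdgf1 rose to 257 RPKM in d8, against 185 RPKM in GC lines (limma adjusted p = 0.030). Both had no overlap of libraries, a split found in 11.4% of all tested genes, and both had already passed the test on these libraries. Klf4 was the lowest of them, at 3.90 to 10.3 RPKM in d8 and 5.88 to 9.09 RPKM in GC libraries.

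Nrg2, a neuregulin known mainly from the nervous system, was transcribed at a low level in d8 lines and near the floor in GC lines. It lies on chromosome 18 (mm10, 36017658 to 36197160, minus strand). In d8 line 1 the 3 samples stood at 4.04, 3.02 and 3.53 RPKM, in d8 line 2 at 2.83, 4.58 and 1.54 RPKM, and in d8 line 3 the 2 samples stood at 2.20 and 1.73 RPKM. In GC line 1 the values were 0.225, 0.279 and 0.241 RPKM, and in GC line 2 they were 0.442, 0.280 and 0.149 RPKM. Every d8 library was above every GC library, and d8 line 2 spread most widely. Over all tested genes, 4.05% had all d8 libraries above all GC libraries, and 7.35% had all of them below. Those levels rest on an estimated 68 to 208 reads per d8 library and 7 to 20 reads per GC library. The line means averaged 2.82 ± 0.795 RPKM in d8 (SD, n = 3 lines) and 0.269 ± 0.0297 RPKM in GC (SD, n = 2 lines), a ratio of 10.5. Markers of primitive endoderm also had higher sums in d8. Their summed level over 8 genes was 36.7 to 75.5 RPKM in d8 libraries and 15.3 to 32.0 RPKM in GC libraries. These did not overlap, a split found in 4.05% of single tested genes, as given above. Sample B of d8 line 2 had both the highest sum and the highest Nrg2 level, which is a match in 1 library. Of the 6 tested, 2 rose, against 3.02% of all genes. These were Gata4, with 6.59 RPKM in d8 and 1.51 RPKM in GC lines, and Lrp2, the highest of the 8, with 31.9 RPKM in d8 and 16.6 RPKM in GC lines. Foxa2, below the filter, had 0.600 RPKM in d8 and 0.601 RPKM in GC lines. No marker of the 8 had a median under 0.1 RPKM, and their part in the Nrg2 level was not tested. In bulk RNA, fewer cells with the transcript and less transcript per cell cannot be told apart.

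On the log2(RPKM + 1) scale, which understates the change of a gene as low as Nrg2, its log2 fold change was 1.54 (SE 0.19). With a pseudocount of 0.1 RPKM in place of 1 it was 2.94. It stood at place 8 of 12468 by log2 fold change, and 4 genes, itself included, had a ratio of mean RPKM at least as large. This contrast is the one that chose Nrg2, and the gene entered the test only through its level in d8, so no test is given for it here. Of the other members, 5 passed the filter of at least 1 RPKM in either genotype. None of these 5 passed the test (limma), against 8.76% of all genes called in either direction. At an unadjusted p under 0.05 there were 2, a level not counted over all genes, so no excess is read from it. In the authors' deposited table of 1280 changed genes, 664 of them with a positive fold change, Nrg2 was the 1 member listed, with a log2 fold change of 2.97 and the 5th place from the top. The smallest absolute log2 fold change in that table was 0.50. It comes from libraries whose columns match no sample here, so 2.97 and 1.54 are not values of the same libraries.

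**Figure D1:**
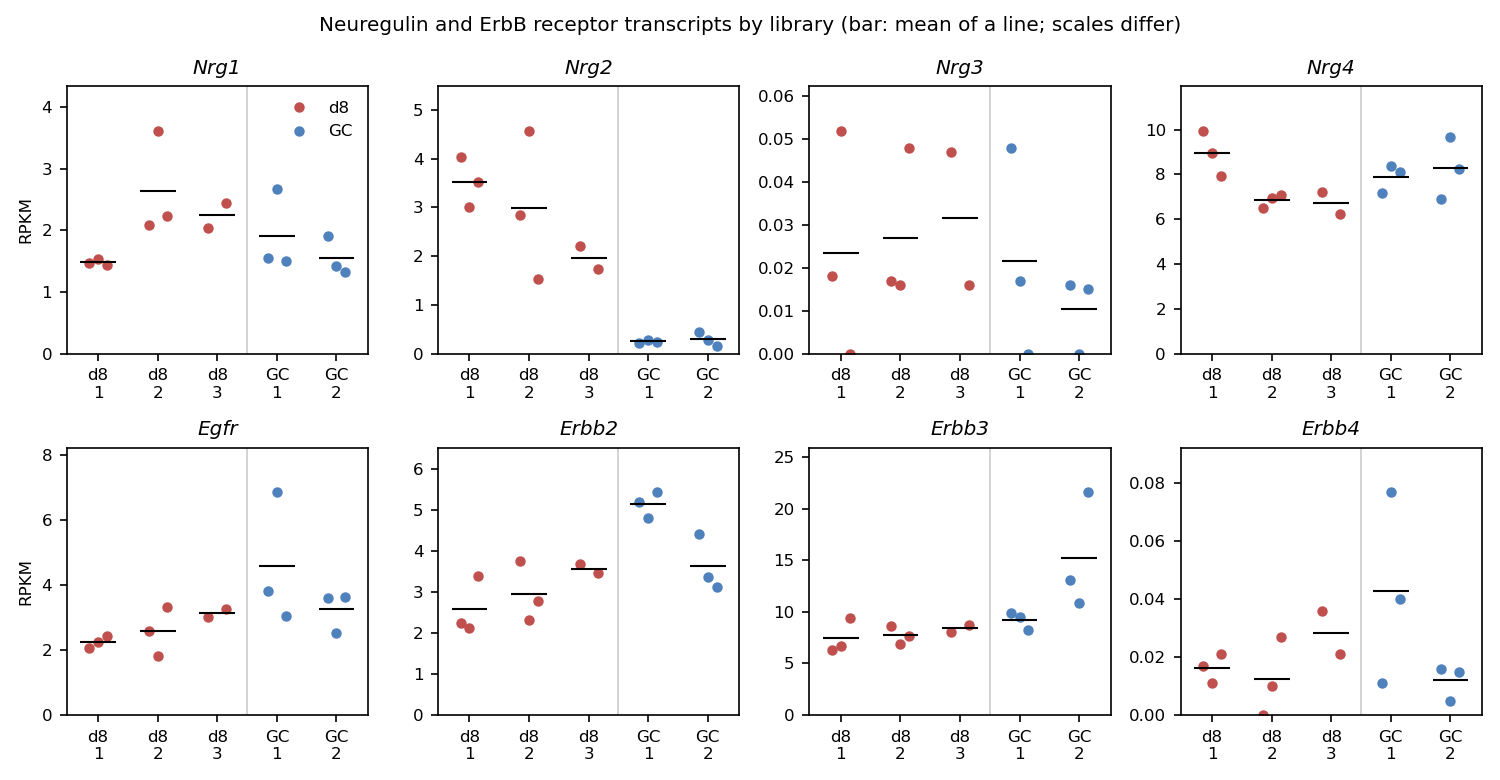
RPKM of the 8 members in each of the 14 RNA-seq libraries (points), grouped by line on the horizontal axis with d8 lines in red left of GC lines in blue, and the mean of each line as a black bar. Nrg2 lies at 1.54 to 4.58 RPKM in d8 and at 0.149 to 0.442 RPKM in GC libraries, the other panels overlap between genotypes, and the vertical scales differ between panels.

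The other 3 neuregulins did not pass the test or were too low for it. Nrg4, a ligand of Erbb4 known from fat tissue, was the neuregulin with the highest level in both genotypes. Its d8 samples stood at 9.95, 8.94 and 7.93 RPKM in line 1, 6.51, 6.95 and 7.08 RPKM in line 2 and 7.21 and 6.23 RPKM in line 3. Its GC samples stood at 7.14, 8.38 and 8.12 RPKM in line 1 and 6.92, 9.66 and 8.22 RPKM in line 2. The ranges overlapped almost fully, and d8 line 1 was the highest line. The mean was 7.50 ± 1.25 RPKM in d8 and 8.07 ± 0.272 RPKM in GC lines, with a log2 fold change of -0.10 (SE 0.14, 95% interval -0.43 to 0.23, limma adjusted p = 0.68).

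Nrg1, a ligand of Erbb3 and Erbb4 needed for heart and Schwann cell development, was lower than Nrg4 in every library. Its d8 values were 1.47, 1.53 and 1.44 RPKM in line 1, 2.08, 3.62 and 2.23 RPKM in line 2 and 2.03 and 2.44 RPKM in line 3. Its GC values were 1.55, 2.67 and 1.49 RPKM in line 1 and 1.91, 1.41 and 1.32 RPKM in line 2. The genotypes overlapped, with 1 sample of d8 line 2 and 1 of GC line 1 above the rest of their lines. The means were 2.12 ± 0.590 RPKM in d8 and 1.72 ± 0.252 RPKM in GC lines (log2 fold change 0.19, SE 0.18, 95% interval -0.25 to 0.62, limma adjusted p = 0.55). The deposited value covers 1 short transcript of Nrg1 (NM_178591), which starts far inside a RefSeq locus of 1084.2 kb, so longer isoforms are counted only where they share its exons. Nrg3, a ligand of Erbb4 found mainly in brain, had 0 to 3 estimated reads per library and 0 to 0.052 RPKM in d8 libraries, against 0 to 0.048 RPKM in GC libraries. A difference in Nrg3 was not detectable at this depth.

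Added together, the 4 neuregulins came to 10.4 to 15.5 RPKM in d8 libraries (median 12.2) and 8.96 to 11.3 RPKM in GC libraries (median 9.78). Nrg2 made up 14.1 to 30.2% of that sum in d8 libraries and 1.54 to 4.76% in GC libraries. The sums overlapped between genotypes and the Nrg2 shares did not, which follows from the choice of Nrg2.

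Erbb3, the receptor that binds Nrg1 and Nrg2, was the most abundant of the 4 receptors in both genotypes, and its mean was lower in d8, short of the threshold. The d8 samples stood at 6.29, 6.65 and 9.36 RPKM in line 1, 8.63, 6.91 and 7.64 RPKM in line 2 and 8.09 and 8.71 RPKM in line 3. The GC samples stood at 9.90, 9.52 and 8.28 RPKM in line 1 and 13.1, 10.8 and 21.6 RPKM in line 2. The libraries overlapped, since 3 d8 samples were above the lowest GC sample, but all 3 d8 line means (7.43 to 8.40 RPKM) were below both GC line means (9.23 and 15.2 RPKM). The means were 7.85 ± 0.496 RPKM in d8 and 12.2 ± 4.20 RPKM in GC lines, with a log2 fold change of -0.52 (SE 0.18, 95% interval -0.95 to -0.09, limma adjusted p = 0.12). Without the GC sample at 21.6 RPKM, sample C of line 2, it was -0.38 (limma adjusted p = 0.12), and without GC line 2 it was -0.21 (limma adjusted p = 0.39). Without GC line 1 it was -0.82 (limma adjusted p = 0.067). Sample C of GC line 2 also had the highest summed level of 8 trophoblast markers, 332 RPKM, against 74.3 to 251 RPKM in d8 libraries and 173 to 332 RPKM over all GC libraries. Elf5, the lowest of these markers, had a median of 0.0145 RPKM in d8 and 0.152 RPKM in GC libraries. Their part in the Erbb3 value was not tested.

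Erbb2, the preferred partner of the other ErbB receptors, was likewise lower on average in d8 without passing the test. The d8 values were 2.24, 2.12 and 3.38 RPKM in line 1, 3.75, 2.32 and 2.77 RPKM in line 2 and 3.68 and 3.45 RPKM in line 3. The GC values were 5.18, 4.79 and 5.43 RPKM in line 1 and 4.40, 3.37 and 3.11 RPKM in line 2. All 3 samples of GC line 1 were above every d8 sample, while GC line 2 overlapped with d8. The log2 fold change was -0.42 (SE 0.17, limma adjusted p = 0.18), from means of 3.03 ± 0.496 RPKM in d8 and 4.38 ± 1.07 RPKM in GC lines, and without GC line 1 it was -0.21 (limma adjusted p = 0.57). Without GC line 2 it was -0.62 (limma adjusted p = 0.13). Erbb2 lies on chromosome 11, where the median was -0.40, and with each chromosome centred in each line it was -0.02 (limma adjusted p = 0.95).

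Egfr, the receptor of EGF itself, is also on chromosome 11. Its d8 values were 2.07, 2.24 and 2.44 RPKM in line 1, 2.59, 1.81 and 3.32 RPKM in line 2 and 3.02 and 3.27 RPKM in line 3. Its GC values were 3.81, 6.85 and 3.06 RPKM in line 1 and 3.59, 2.52 and 3.63 RPKM in line 2. Libraries of the genotypes overlapped, and sample B of GC line 1 stood far above the rest. The means were 2.66 ± 0.452 RPKM in d8 and 3.91 ± 0.938 RPKM in GC lines, with a log2 fold change of -0.39 (SE 0.16, 95% interval -0.78 to -0.00071, limma adjusted p = 0.18). It was -0.25 (limma adjusted p = 0.30) without sample B of GC line 1, -0.22 (limma adjusted p = 0.55) without that line, -0.56 (limma adjusted p = 0.15) without GC line 2, and 0.00 when each chromosome was centred. Sample B of GC line 1 also had the highest summed level of 9 markers of fibroblasts or feeder cells, 470 RPKM, against 125 to 199 RPKM in d8 libraries and 171 to 470 RPKM over GC libraries. Of those markers 5 of the 8 tested were lower in d8, against 5.74% of all genes, among them Acta2 and Col1a1, the latter on chromosome 11. Except for Acta2, those called averaged under 1 RPKM in d8 and entered the test only through their level in GC. These were Col1a1, Col1a2, S100a4 and Postn, so no excess is read from this count. Thy1 went the other way, with 5.15 RPKM in d8 and 3.67 RPKM in GC lines (log2 fold change 0.45, limma adjusted p = 0.13). Fn1 had the highest level of them, at 129 RPKM in d8 and 180 RPKM in GC lines. The part of these markers in the Egfr value was not tested.

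Erbb4, a receptor of all neuregulins, had 0 to 0.036 RPKM in d8 libraries and 0.005 to 0.077 RPKM in GC libraries, from 0 to 14 estimated reads, and was not tested. The sum of the 4 receptors was 10.6 to 15.5 RPKM in d8 libraries (median 14.3) and 16.7 to 28.4 RPKM in GC libraries (median 20.003). These sums did not overlap between genotypes, although no single receptor passed the test. Among single tested genes, 7.35% had all d8 libraries below all GC libraries. The sums themselves were not tested. Erbb3, the most abundant receptor, and the pair of receptors on chromosome 11 are part of both.

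RPKM is scaled by exon length, so the members can be ranked by level. In d8 libraries the median level ran in the order Erbb3 (7.87 RPKM), Nrg4 (7.15), Erbb2 (3.08), Nrg2 (2.93), Egfr (2.52), Nrg1 (2.06), Erbb4 and Nrg3 (both under 0.1). In that order 2 pairs of neighbours had ranges that did not overlap, Nrg4 above Erbb2 and Nrg1 above Erbb4. In GC libraries the order was Erbb3 (10.4 RPKM), Nrg4 (8.17), Erbb2 (4.60), Egfr (3.61), Nrg1 (1.52), Nrg2 (0.26), then Nrg3 and Erbb4 together. There the ranges did not overlap between Nrg4 and Erbb2, Nrg1 and Nrg2, or Nrg2 and Nrg3. Nrg2 thus stood among Erbb2, Egfr and Nrg1 in d8 and below all of them in GC libraries. Of markers of cells known for neuregulin signalling, those of neural crest and Schwann cells summed to 16.0 to 34.1 RPKM in d8 and 15.0 to 23.8 RPKM in GC libraries, with a median of S100b under 0.1 RPKM in each. Markers of neural progenitors and neurons summed to 79.3 to 115 RPKM in d8 and 95.7 to 121 RPKM in GC libraries. Heart muscle markers summed to 2.23 to 5.59 RPKM in d8 and 4.32 to 7.08 RPKM in GC libraries, with a median of Tbx5 under 0.1 RPKM in each.

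Lines of 1 genotype were also compared, and their p-values rest only on how far samples of the same line differ, a spread that may be technical. Between GC line 2 and GC line 1, none of the 6 members tested passed (limma), against 6.6% of all genes called. An unadjusted p under 0.05 was found for 2 of them, a level not counted over all genes. Erbb3 had 15.2 RPKM in GC line 2 and 9.23 RPKM in GC line 1, a log2 difference of 0.61 with an SE of 0.20 (limma adjusted p = 0.082). Erbb2 had 3.63 RPKM in GC line 2 and 5.14 RPKM in GC line 1, a log2 difference of -0.42 with an SE of 0.16 (limma adjusted p = 0.14). Without sample B of GC line 2, the difference in Erbb3 was 0.81 (limma adjusted p = 0.045), the only leave-out of 1 sample that passed. Without sample C of GC line 2, which had 21.6 RPKM, it was 0.34 (limma adjusted p = 0.26). Among the 3 d8 lines no member passed (limma F test), against 2.32% of all genes called. An unadjusted p under 0.05 was found for 2 members, again with no count over all genes. Those 2 were Nrg4, with line means of 8.94, 6.85 and 6.72 RPKM (limma adjusted p = 0.19), and Nrg1, with line means of 1.48, 2.64 and 2.24 RPKM (limma adjusted p = 0.23). The Nrg2 line means of 3.53, 2.98 and 1.96 RPKM differed with a limma adjusted p of 0.34.

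Tested genes beside Nrg2 had smaller log2 fold changes than Nrg2, which largely follows from the choice of Nrg2 by this contrast. Within 500 kb of its start there were 20 other genes, of which 13 were tested. None of the 13 passed (limma), against 8.76% of all genes called in either direction. At an unadjusted p under 0.05 there were 3, a level not counted over all genes. Their log2 fold changes ran from -0.32 to 0.46, with a median of -0.08, against 1.54 for Nrg2. The ends of that range were Pura, a DNA- and RNA-binding protein of neurons, with 10.1 ± 0.783 RPKM in d8 and 7.16 ± 1.84 RPKM in GC lines (limma adjusted p = 0.11), and Pfdn1, a subunit of the prefoldin chaperone, with 77.3 ± 3.40 RPKM in d8 and 96.9 ± 6.59 RPKM in GC lines (limma adjusted p = 0.052). Psd2, the gene just past the 3′ end of Nrg2, was below the filter, with 0.366 ± 0.0928 RPKM in d8 and 0.337 ± 0.0313 RPKM in GC lines. Igip, whose start lies 102.9 kb from that of Nrg2, was also below the filter, with 0.874 ± 0.101 RPKM in d8 and 0.663 ± 0.126 RPKM in GC lines. The authors' deposited table lists Igip with a log2 fold change of 1.70 and Cxxc5, 366.8 kb from Nrg2, with -0.64, beside 2.97 for Nrg2. From the RPKM lines Cxxc5 had 17.4 ± 2.95 RPKM in d8 and 18.4 ± 1.38 RPKM in GC lines (log2 fold change -0.08, limma adjusted p = 0.78). The same stretch holds a second ligand of the family, Hbegf, a ligand of Egfr and Erbb4, whose start lies 318.6 kb from that of Nrg2. Hbegf had 6.16 ± 1.25 RPKM in d8 and 7.97 ± 1.41 RPKM in GC lines (log2 fold change -0.30, SE 0.18, limma adjusted p = 0.32).

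**Figure D2:**
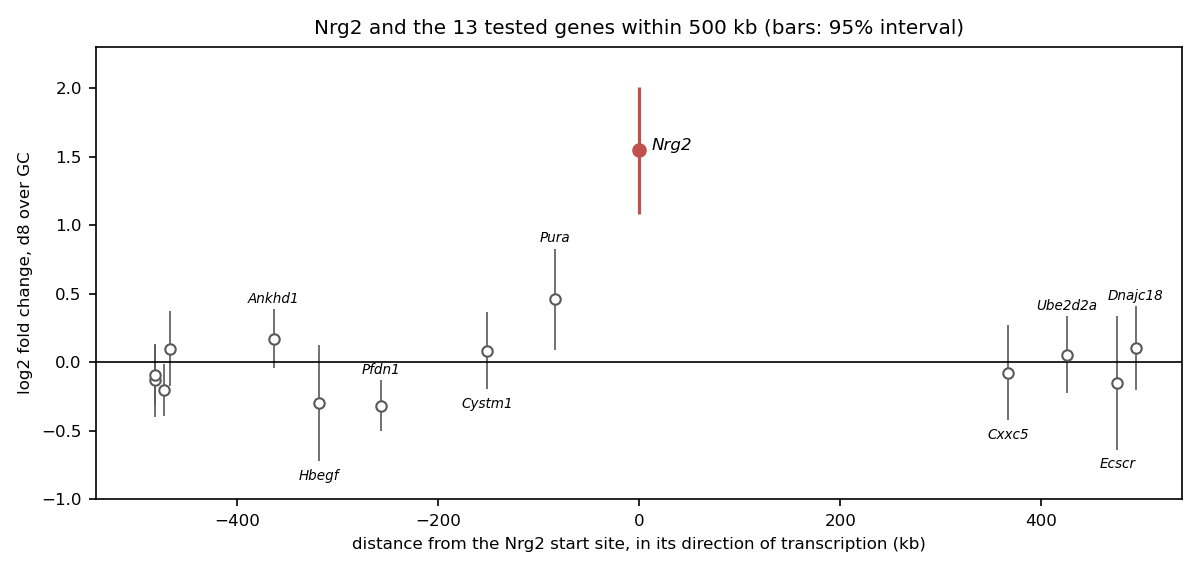
Log2 fold change of d8 over GC (vertical axis, on log2(RPKM + 1), bars give 95% intervals) of Nrg2 in red and of the 13 tested genes in grey, by the distance of their start sites from that of Nrg2 in kb (horizontal axis, positive in the direction of Nrg2 transcription). Nrg2 stands at 1.54 and the others lie between -0.32 and 0.46, with 4 genes near the left end unnamed. Nrg2 was chosen by this contrast, so its place and its bar are no test.

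CTCF peaks were then set beside these transcripts, with 15546 peaks in the Del8 list and 26729 in the GC list. These are counts of calls from 1 library each, so no test was made, and a peak missing from the Del8 list may lie under its calling threshold. The Del8 list was called from 5.59 M tags and the GC list from 8.09 M tags. Of all Del8 peaks 72.2% overlapped a GC peak, and of all GC peaks 42% overlapped a Del8 peak. All peaks had a score of 1 in the deposited lists, so the position in the list was taken as their order, and whether that order follows peak strength was not tested. Of the first 13364 GC peaks 61.5% overlapped a Del8 peak, and of the other 13365 it was 22.4%.

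At Nrg2 and within 50 kb of it there were 3 Del8 peaks and 6 GC peaks, and 2 of the GC peaks overlapped a Del8 peak. The GC peak at the promoter was centred 260 bp upstream of the start of the deposited transcript. It lay on mm10 chromosome 18 at 36197304 to 36197536 (position 6339 of the GC list) and was not in the Del8 list. The RefSeq locus of Nrg2 reaches to 36197532, inside this peak, so the distance depends on the transcript used. A further 3 GC peaks were also not in the Del8 list, centred 25.5 kb upstream of the start, and 166.0 kb and 178.0 kb downstream of it inside the gene. The shared peaks were 1 inside the gene at 74.8 kb, at position 719 of the Del8 list and 509 of the GC list, and 1 past its end at 215.7 kb, at position 14032 of the Del8 list and 5727 of the GC list. The Del8 list had 1 peak of its own, 213.7 kb from the start. In all, 4 of the 6 GC peaks were missing from the Del8 list, the promoter peak among them, against 15511 of the 26729 peaks of the whole GC list. No difference from that share is read from 6 peaks. The promoter peak was part of the choice of Nrg2, so it does not count as support.

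Promoter peaks missing from the Del8 list, called lost here, were common. Of 24940 genes, 2625 (10.5%) had a GC peak within 1 kb of the start, and in 1140 of them (43.4%) no such peak was shared with Del8. Of the 763 tested genes among those with a lost peak, 26 were higher in d8 (3.41%) and 52 lower (6.82%). Of 1065 tested genes with a shared promoter peak, 36 were higher (3.38%) and 135 lower (12.7%). Of 10640 tested genes with no GC promoter peak, 314 were higher (2.95%) and 529 lower (4.97%).

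The other 7 members had 17 Del8 peaks and 19 GC peaks in the same windows. Of those GC peaks 10 (52.6%) were shared, against 42% of all GC peaks. Erbb3 had the most, with 6 Del8 peaks and 7 GC peaks, of which 5 were shared. The peak next to the Erbb3 start was shared, centred 1033 bp upstream in the Del8 list (position 2218) and 1039 bp upstream in the GC list (position 3336). Erbb2 had 3 Del8 peaks and 5 GC peaks, of which 2 were shared. One of the shared Erbb2 peaks was the peak over the Mien1 start in the sequence printed above, at position 3622 of the Del8 list and 814 of the GC list. Egfr had 2 Del8 and 2 GC peaks with 1 shared inside the gene at 119.1 kb, Nrg4 had 1 Del8 peak, which was shared, and 2 GC peaks, and Erbb4 had 3 Del8 and 2 GC peaks with 1 shared. Nrg3 had 1 peak in each list, neither shared, and Nrg1 had 1 Del8 peak and no GC peak. Over the whole RefSeq locus of Nrg1, the longest of its isoforms included, there were 8 Del8 and 10 GC peaks, of which 4 were shared. Nrg2 and Erbb3 were the 2 members with a GC peak that reached within 1 kb of the start, lost in Nrg2 and shared in Erbb3. The transcript of Erbb3 was 7.85 RPKM in d8 and 12.2 RPKM in GC lines, as given above.

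**Figure D3:**
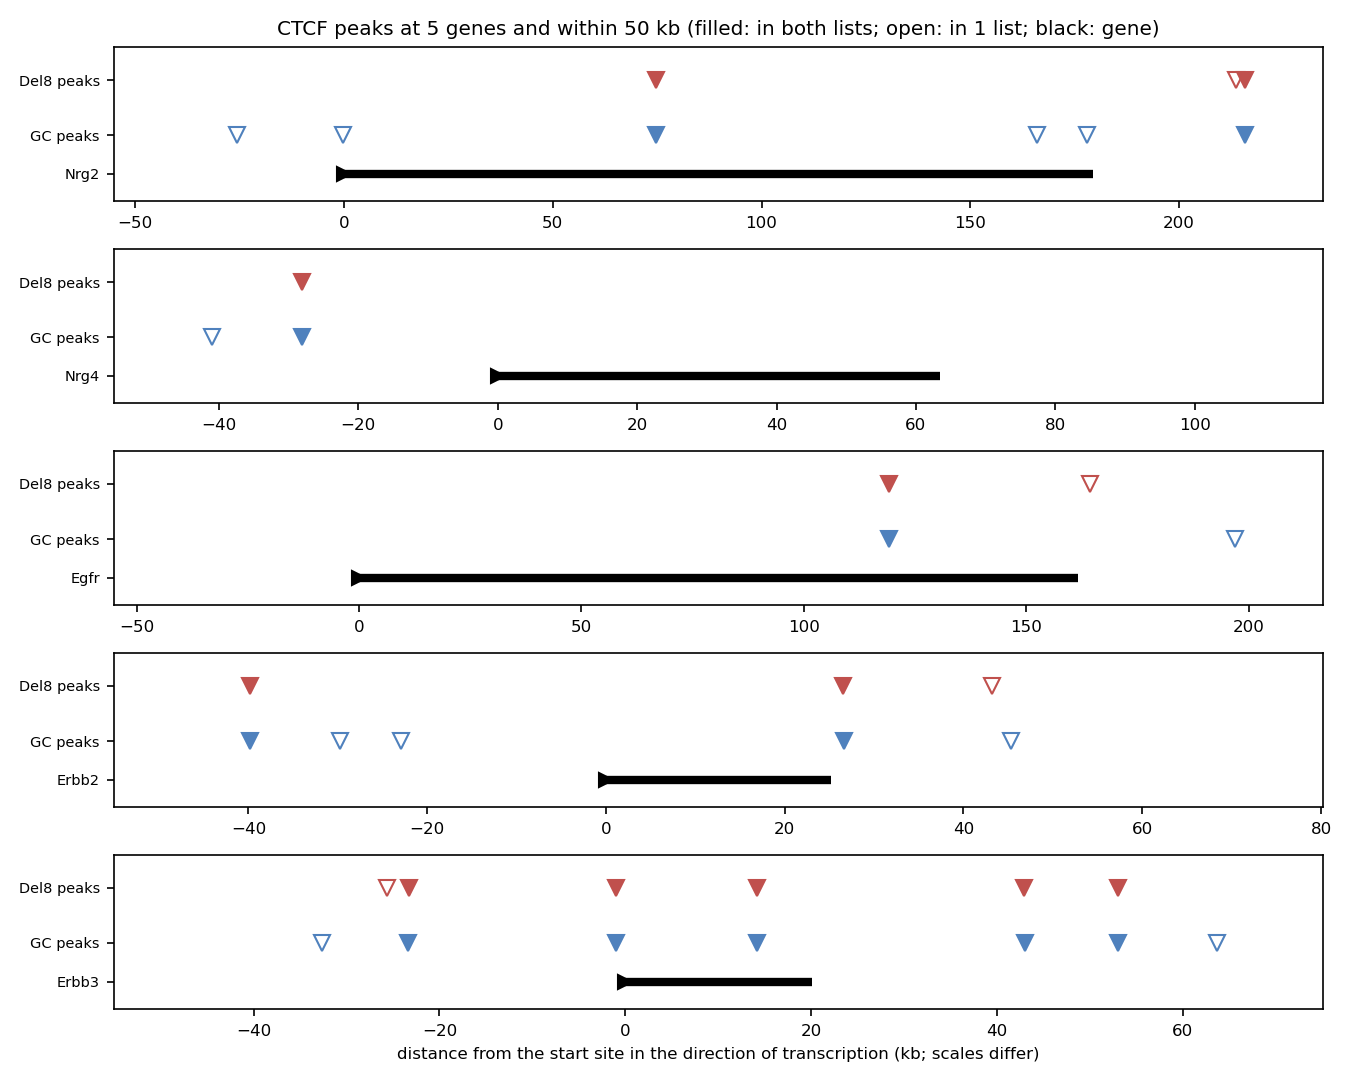
CTCF peaks (triangles) of the Del8 list in red above those of the GC list in blue at Nrg2, Nrg4, Egfr, Erbb2 and Erbb3 and within 50 kb of each gene (black bar, arrow at the start), by distance from the start site in kb. Filled triangles are in both lists and open ones in 1 list. Nrg2 keeps 2 of 6 GC peaks and Erbb3 keeps 5 of 7, against 42% of all GC peaks.

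The rest of the pathway was read from 8 lists of 91 genes, 81 of them tested. Of these, 5 were higher and 7 lower in d8, against 3.02% and 5.74% of all genes, and the median log2 fold change was -0.03, against -0.02 over all genes. The lists were drawn up with earlier results known, so nothing particular to them is read from these counts. The same holds for the counts of single lists below, which stand against the same 3.02% and 5.74%. None of the 12 calls held without GC line 1, GC line 2 or d8 line 3 (limma), when 21, 27 and 25 of the 81 had an unadjusted p under 0.05. Without d8 line 1 there were 2 that held, without d8 line 2 there were 6, and with no filter on low values 2. With chromosomes centred line by line, 5 of the 12 calls held. Those lost were Adam19, Grb2 and Crk, all on chromosome 11, and Map2k1, Pik3r1, Erbin and Spry2, whose centred log2 fold changes were -0.32, 0.45, 0.47 and 0.41 (limma adjusted p = 0.073, 0.078, 0.051 and 0.057).

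Of the other EGF-family ligands, 2 of 7 were high enough to test and neither passed (limma), with 0 at an unadjusted p under 0.05. These were Hbegf, given above, and Tgfa, a ligand of Egfr, with 1.11 ± 0.361 RPKM in d8 and 1.05 ± 0.0424 RPKM in GC lines. Of the genes that shed or process ligands, 0 of 7 tested rose and 2 fell. Adam19, a metalloprotease that can shed neuregulins, fell to 12.3 ± 2.26 RPKM in d8, against 28.2 ± 8.04 RPKM in GC lines (log2 fold change -1.08 with an SE of 0.20, limma adjusted p = 0.028). The gene lies on chromosome 11, and with chromosomes centred its value was -0.69 (limma adjusted p = 0.12). Bace1, which cleaves Nrg1 in nerves, fell to 4.19 ± 0.393 RPKM in d8, against 7.25 ± 0.229 RPKM in GC lines (log2 fold change -0.67, SE 0.11, limma adjusted p = 0.025). Neither gene's libraries overlapped between genotypes, a split found in 11.4% of all tested genes. Both genes had already passed the test on the same libraries, so the split adds no support. Adam17, the main sheddase of EGF-family ligands, had 20.01 ± 0.635 RPKM in d8 and 22.8 ± 2.08 RPKM in GC lines (limma adjusted p = 0.25). Its libraries did not overlap either.

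In the RAS-ERK relay, 1 of 15 genes rose and 2 fell. Grb2, the adaptor between receptors and RAS, fell to 23.9 ± 1.89 RPKM in d8, against 36.3 ± 1.02 RPKM in GC lines (log2 fold change -0.58, limma adjusted p = 0.020). It lies on chromosome 11, and with chromosomes centred it was -0.19 (limma adjusted p = 0.27). Map2k1, the kinase of ERK, fell to 37.0 ± 1.15 RPKM in d8, against 46.2 ± 0.899 RPKM in GC lines (log2 fold change -0.31, limma adjusted p = 0.043), with overlapping libraries. The docking protein Gab1 stood at 122 ± 2.29 RPKM in d8 and 97.9 ± 14.3 RPKM in GC lines (limma adjusted p = 0.089).

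In the PI3-kinase relay, the route used by Erbb3, 1 of 11 genes rose and 0 fell. The gene that rose was Pik3r1, a regulatory subunit, with 4.69 ± 0.194 RPKM in d8 and 3.12 ± 0.0448 RPKM in GC lines (log2 fold change 0.47, limma adjusted p = 0.043). Its libraries overlapped between genotypes. Of 12 other effectors tested, 0 rose and 1 fell, the adaptor Crk on chromosome 11, with 18.7 ± 2.22 RPKM in d8 and 27.7 ± 1.09 RPKM in GC lines (log2 fold change -0.55, limma adjusted p = 0.036). With chromosomes centred, Crk was at -0.16 (limma adjusted p = 0.34). Grb7, an adaptor of Erbb2 and a close neighbour of its gene, had 23.3 ± 0.914 RPKM in d8 and 27.4 ± 1.42 RPKM in GC lines (limma adjusted p = 0.16). None of the 12 genes that restrain receptors passed (limma), and 4 had an unadjusted p under 0.05. Among receptor partners and chaperones 1 of 5 tested rose, Erbin, a scaffold protein that binds Erbb2, with 8.58 ± 0.529 RPKM in d8 and 5.85 ± 0.523 RPKM in GC lines (log2 fold change 0.50, limma adjusted p = 0.038).

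Of 17 genes that ERK signalling can induce, 2 rose and 2 fell, against 3.02% and 5.74% of all genes, with a median log2 fold change of -0.10. These calls depended on single lines, as given above, and no excess is read from them. Egr1, an immediate-early transcription factor, fell to 6.30 ± 1.84 RPKM in d8, against 16.3 ± 0.710 RPKM in GC lines (log2 fold change -1.25, SE 0.21, limma adjusted p = 0.025). Fos, another immediate-early factor, fell to 1.35 ± 0.181 RPKM in d8, against 2.63 ± 0.147 RPKM in GC lines (log2 fold change -0.63, limma adjusted p = 0.036). Myc rose to 28.6 ± 3.98 RPKM in d8, against 17.3 ± 0.471 RPKM in GC lines (log2 fold change 0.68, limma adjusted p = 0.024). Spry2, an inhibitor of receptor tyrosine kinase signalling, rose to 77.4 ± 7.11 RPKM in d8, against 56.9 ± 4.41 RPKM in GC lines (log2 fold change 0.44, limma adjusted p = 0.043). Of the 17 genes, these 4 and no others had libraries that did not overlap between genotypes, against 11.4% of all tested genes. The 4 had already passed the test on the same libraries, so the split adds no support.

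**Figure D4:**
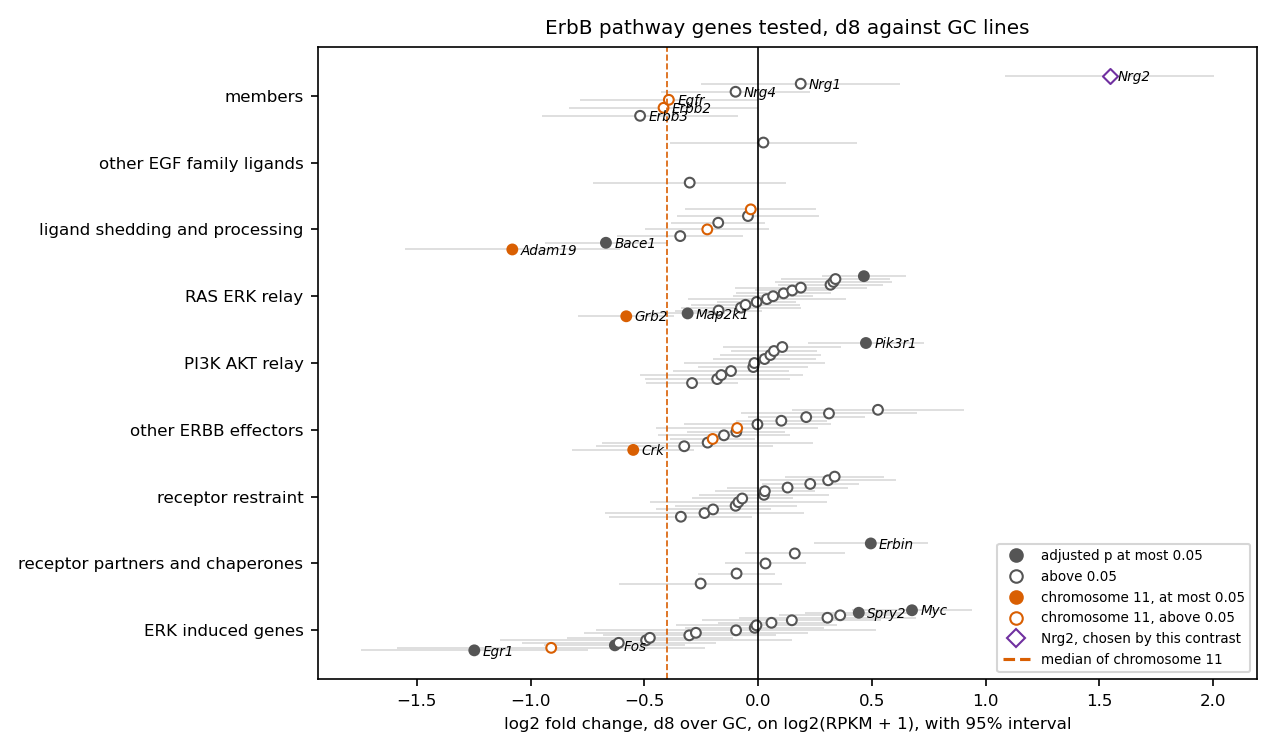
Log2 fold change of d8 over GC (horizontal axis, on log2(RPKM + 1), with 95% intervals in grey) of the 6 tested members and of the tested genes of 8 pathway lists (rows, 1 point per gene). Filled circles have an adjusted p of at most 0.05 and most are named. The open diamond is Nrg2, which this contrast chose, so its interval is no test. Genes on chromosome 11 are orange, and the dashed line marks the median of chromosome 11 at -0.40. Nrg2 at 1.54 lies to the right of every other gene drawn, while the lists lie on both sides of 0.

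The genes whose pattern over the 14 libraries was most like that of Nrg2 were found by Pearson's r of log2(RPKM + 1). They were Xist (r = 0.96) and Tsix (0.95), overlapping antisense RNAs of the X-inactivation centre whose reads cannot be told apart without a stated strand setting, Icam1, a cell adhesion molecule (0.95), Kif26a, a kinesin-family protein (0.95), and Fgfr4, a fibroblast growth factor receptor (0.95). The least alike were Hnrnph1 (r = -0.97), Ppm1d (-0.96), Got2 (-0.96), R3hcc1 (-0.96) and Lrrc59 (-0.95). All d8 libraries of each of these 10 genes lay on 1 side of all GC libraries, as did those of Nrg2, which was chosen for that split, so the points share the genotype. Such a split was found in 11.4% of all genes tested. Fgfr4, a receptor tyrosine kinase like the ErbB receptors, had 1.78 to 4.19 RPKM in d8 and 0.422 to 0.837 RPKM in GC libraries.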

How the data were processed

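The RNA libraries came from a strand-marking mRNA kit and were sequenced as 50 bp single reads, per the labels' protocols. RPKM values were deposited by the authors, counted with HOMER analyzeRepeats over exons of 1 RefSeq transcript per gene in mm10, per the file headers, which name no strand setting. Low values are whole multiples of 1 read (100% of values checked, tolerance 0.1 read), which gave the depths. Peaks have a deposited score of 1 each and were called with HOMER findPeaks at a false discovery rate of 0.001, per the file headers. The authors' table of log2 fold changes and p-values was deposited with no test named, and its sign is del8 over control. Its 5 columns of other libraries were not used. The submitters' processing notes also name Bowtie, HISAT2, SAMtools, deepTools and DESeq2, with builds mm10 and mm9. The peaks were taken as mm10, since 8.76% of GC peaks, and 3.26% once moved by 100 kb, fell within 1 kb of a start.

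Libraries were averaged per line on log2(RPKM + 1), and 3 d8 lines were set against 2 GC lines with limma 3.58.1 in R 4.3.3, with a variance trend, two-sided, for genes that averaged 1 RPKM or more in either of the genotypes. The design allowed for counts or RPKM, and the RPKM branch was used. Scripts were tested on simulated data. Peaks were shared where they overlapped by at least 1 bp. Genes named were all members, all genes within 500 kb of Nrg2, up to 4 called and 2 of the highest level per list, and the 5 most and 5 least like Nrg2. Some genes of these lists are not reported here. In text, neighbours are given as the ends of their range with Psd2, Hbegf, Igip and Cxxc5. The members and lists were chosen with earlier results of these data known. Alternatives were the pseudocount, the filter, leaving out lines or samples, random and replicate blocks, scaling, chromosome centring, peak windows and overlaps. The other 6 ChIP-seq and 10 Med-Seq samples were not analysed here.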

Additional observations from a re-analysis of the deposited data

Results flagged for a closer look

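In 4 of 16 groups of libraries checked, 8 members in 2 genotypes, 1 library stood apart from the rest of its group by the gap to its nearest neighbour. Chance gives about 1 in 20 such groups only where values are independent and follow a normal curve. RPKM values pooled over lines need not, so no excess is read from the 4 groups. Nrg1 was 3.615 RPKM in sample B of d8 line 2, against 2.444 RPKM in the next d8 library. Egfr was 6.854 RPKM in sample B of GC line 1, against 3.805 RPKM in the next GC library. Erbb3 was 21.599 RPKM in sample C of GC line 2, against 13.097 RPKM in the next GC library. Nrg3 was 0.048 RPKM in sample A of GC line 1, an estimated 3 reads, against 0.017 RPKM in the next GC library.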

How the results depend on the processing

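The 5 tested members other than Nrg2 kept their direction and side of the threshold in 74 of 78 values of d8 over GC, and all 6 in 43 of 48 values of GC line 2 over GC line 1. Nrg2, given as a description, ranged from 1.40 to 1.71 when lines or samples were left out, and was 1.52 without GC line 1. Egfr (-0.49, limma adjusted p = 0.047), Erbb2 (-0.51, 0.023) and Erbb3 (-0.57, 0.036) passed in a fit over single samples with the full sample number as a replicate block. Line 3 of d8 has no partner number there, so these fold changes equal those without d8 line 3, and that fit differs from the one on line means in more than the block. Same-numbered samples correlated between -0.19 and 0.08 in their deviations from the genotype means. Those deviations still hold the differences between lines, so whether the samples share more than a number cannot be told from this. With chromosomes centred, Egfr was 4.21e-05. Between GC lines, leaving out 1 sample gave Nrg1 -0.27 to 0.0070, Nrg2 -0.042 to 0.12, Nrg4 -0.053 to 0.16 and Erbb3 0.34 to 0.81. The cause was not tested. Without chromosome 11, Egfr and Erbb2 have no value.

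Genes higher and lower over the whole table were 73 and 217 with no filter on low values, where more genes were tested, 1038 and 1507 over single samples with random line effects, 907 and 1323 when a replicate block of sample letters was added to those, 1188 and 1747 over single samples in the block of full numbers, and 188 and 180 without chromosome 11. Centring chromosomes gave 265 lower. Counts within the pathway lists moved by over 1.5 times in 51 of 112 cases. Leaving out a line or sample gave 4 to 359 higher and 23 to 698 lower. GC peaks at the 8 members numbered 10 within 20 kb, 45 within 100 kb, 15 around the start alone and 16 in the upper part of each list, with 5 and 21 shared within 20 and 100 kb. For Nrg2 they were 12 within 100 kb and 2 around the start, with 1, 5, 0 and 1 shared within 20 kb, within 100 kb, around the start and in the upper part of each list. The leave-outs of samples 1B and 2C, the RefSeq gene span and AGNNGGC alone were chosen after seeing the data. Depth limits Nrg3 and Erbb4, with at most 3 and 14 reads, and peaks rest on 1 library per list.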

Other observations

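The authors' deposited table of changed genes also lists pathway genes, and for some its values differ from those of the RPKM table. For Egr1 the authors' deposited table gives a log2 fold change of -1.65 and for Myc 0.67, with values of -1.25 and 0.68 from the RPKM lines. For Spry4, an inhibitor of receptor tyrosine kinase signalling, the authors' deposited table gives -1.33, while the RPKM lines gave 20.4 RPKM in d8 and 20.2 RPKM in GC (log2 fold change -0.01). For Ptprk, a phosphatase known to act on EGFR in human cells, the authors' deposited table gives -0.81, while the RPKM lines gave 19.9 RPKM in d8 and 15.8 RPKM in GC (log2 fold change 0.31, limma adjusted p = 0.17). The table comes from libraries whose columns match no sample here, and the source of these differences was not tested.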
